A study of Rattus norvegicus with 180 samples.

Results

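miR-21 (rno-miR-21) is 1 of the 717 miRNAs on the array design, and it was selected by its name in the design and in the authors' table of normalized signals. It was chosen because its levels in these same organs were already known to differ widely, so its levels and ranks over organs are given as a description, with no test. The data were 180 1-color miRNA arrays of organs from male Sprague-Dawley rats aged 10 weeks. Most of them held the 55 organs of 3 rats (No. 4, 5 and 6) that were perfused with saline before the organs were taken, with 1 array per organ and rat. The other 15 came from 3 rats (No. 1, 2 and 3) that were not perfused and gave 5 organs each: heart interventricular septum, heart cardiac atrium, lung, kidney and liver. All rats were otherwise untreated, the intestines were mucosal epithelium scraped from the wall, and the sources name no sorting by cell type for the other organs. In such bulk samples, fewer cells of a type and less RNA per cell cannot be told apart.

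A miRNA is cut from a hairpin transcript by Drosha and Dicer, and its mature strand guides Argonaute to mRNAs that pair with its seed, which lowers their translation and stability. miR-21 is a broadly expressed miRNA with known targets such as Pdcd4 and Spry1, and it is best known for high levels in tumors, in fibrotic tissue and in activated immune cells. In the RefSeq annotation of the GRCr8 assembly the hairpin lies on the minus strand at chr10:71902600-71902691. No other annotated gene overlaps it, and the nearest, Vmp1, a gene for an autophagy membrane protein, lies 532 bases away at chr10:71903223-72002337. The 2 mature strands, and the hairpin they come from, are shown because the array measured each strand separately; capitals mark the seed (bases 2 to 8) in the mature strands and both mature strands in the hairpin.
miR-21: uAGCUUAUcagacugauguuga
miR-21*: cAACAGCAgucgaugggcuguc
rno-mir-21: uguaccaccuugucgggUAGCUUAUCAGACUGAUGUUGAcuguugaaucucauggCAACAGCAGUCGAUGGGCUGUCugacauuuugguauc
Among the 724 mature entries of the RefSeq table (692 different sequences), 1 has these bases 2 to 8, miR-21 itself. Its values therefore stand for a seed that no other entry of that table carries.

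Signals are normalized signal intensities, which are background-corrected spot signals averaged per miRNA and scaled so that the 75th percentile of the 37 miRNAs detected on all arrays is 2118 on every array. Values after ± are standard deviations (SD) over 3 rats. miR-21 was detected on 180 of 180 arrays, and all 3460 of its spots that were used were well above background, with 0 saturated. Its opposite strand miR-21* was detected on 0 of the 180 arrays by the detection rule used here, so no level is given for it. Its values above the floor of 10.8, up to 27.0 in duodenum and 22.2 in cecum, did not pass that rule. The 2 probe sequences for miR-21 differed in brightness by 1.75-fold (rectum) to 2.52-fold (pituitary gland) and ordered the 55 organs nearly alike (Spearman's rho 0.99 over organs, which share the arrays and their scaling). Lists of cell-type miRNAs peaked where the labels would place them: the hepatocyte list in liver, acinar in pancreas, erythroid in bone marrow, neuronal in cerebral cortex, intestinal epithelial in duodenum and striated muscle in femoris muscle. The lists were chosen with earlier results of these data known, so their peaks are no independent check of the labels. No list of prostate markers was used.

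miR-21 spanned a wide range over the organs of perfused rats. In the main scaling miR-21 was highest in ventral prostate, the epithelium of the small and large intestine, epididymis, cervical lymph node, liver and other prostate. After quantile normalization duodenum was at position 19 and jejunum at 22 of 55. Epididymis was at position 12 with the percentile over all miRNAs and 15 in the authors' table. miR-21 was lowest in the cerebellum and the cerebral cortex in the main scaling. With the percentile over all miRNAs pancreas was lowest, and in the authors' table cerebral cortex was, with cerebellum at positions 50 and 52 of 55. Cerebral cortex minus cerebellum was 0.27 on the log2 scale in the main scaling, -0.61 with the percentile over all miRNAs and -0.29 in the authors' table. Ordered by the mean of log2 signals, ventral prostate (27248 ± 7757) stood 77.6-fold above cerebellum (347 ± 77.9), a difference of 6.28 on the log2 scale. Within single rats, the highest organ stood 64.6-fold (rat 4), 74.6-fold (rat 5) and 129-fold (rat 6) above the lowest.

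**Figure D1:**
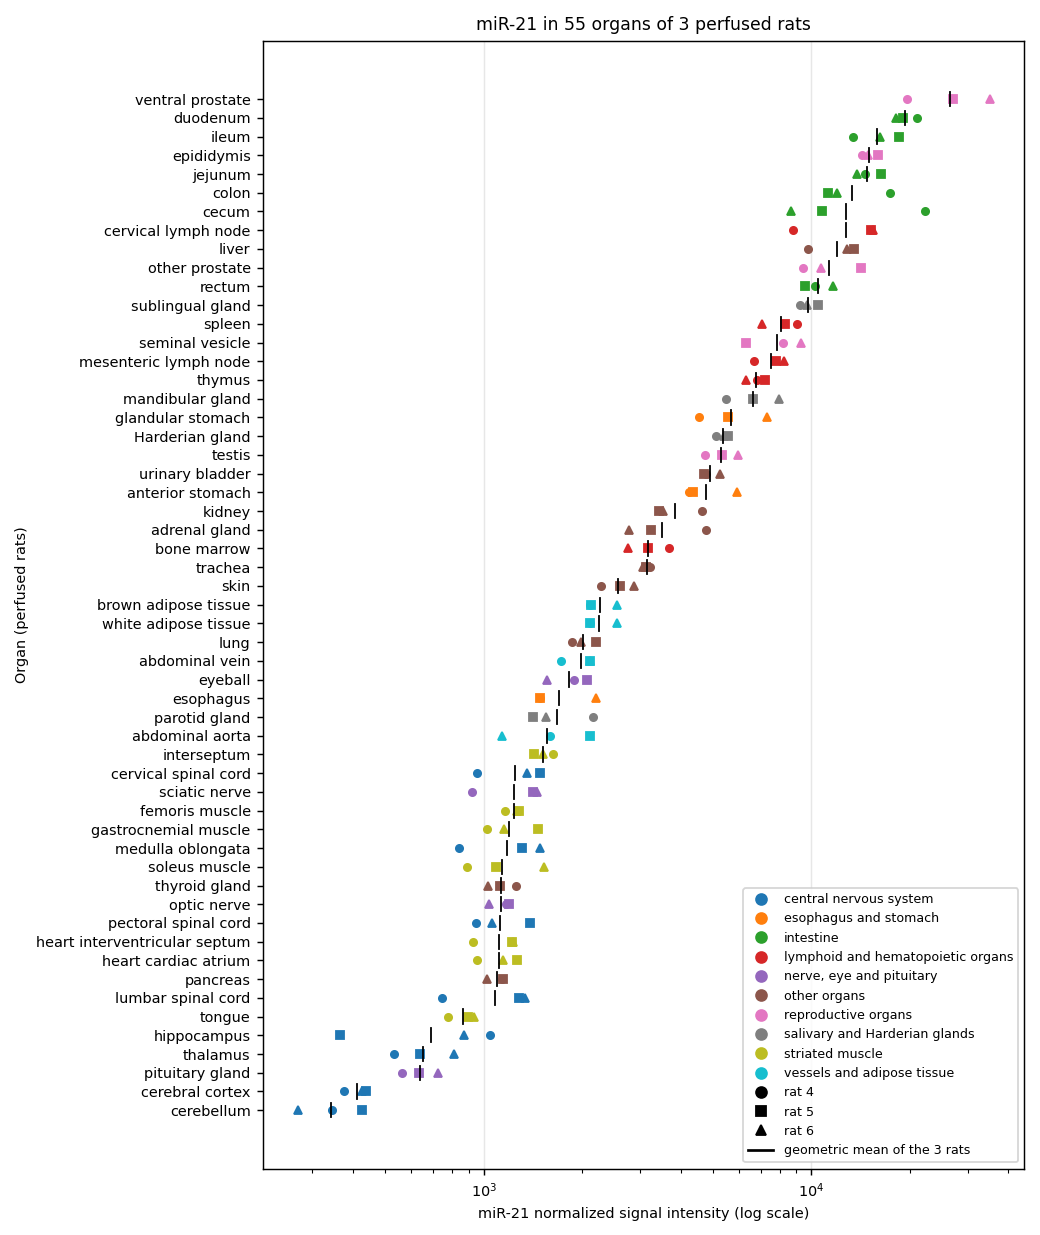
Normalized signal intensity of miR-21 (log scale) in each of the 55 organs of perfused rats, with 1 symbol per rat, a line at the geometric mean of the 3 rats and colors for organ systems. Ventral prostate (27248) is at the top, cerebellum (347) is at the bottom, and most neighbors in the order overlap.

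Below ventral prostate the order ran through duodenum (19400 ± 1504), ileum (16036 ± 2556), epididymis (15062 ± 849), jejunum (14876 ± 1301), colon (13578 ± 3359) and cecum (13896 ± 7293). Then came cervical lymph node (13162 ± 3776), liver (12065 ± 1980), other prostate (11455 ± 2433), rectum (10490.2 ± 1059) and sublingual gland (9803 ± 607). Spleen (8147 ± 1011) came next, and this was the first pair of neighbors whose values did not overlap. It did not part the 12 organs from the rest, since the lowest values of cecum (8684) and cervical lymph node (8805) lay under the highest of spleen (9056).

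The middle of the order was formed by lymphoid organs, glands, stomach and urinary tract. Seminal vesicle (7937 ± 1499), mesenteric lymph node (7578 ± 819), thymus (6796 ± 467) and mandibular gland (6697 ± 1250) followed spleen. Glandular stomach (5817 ± 1425), Harderian gland (5366 ± 213), testis (5343 ± 621), urinary bladder (4902 ± 302) and anterior stomach (4842 ± 937) came next. Below them were kidney (3862 ± 676), adrenal gland (3594 ± 1038), bone marrow (3198 ± 457) and trachea (3144 ± 84.0), and trachea and the organ after it were the second pair of neighbors without overlap.

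Skin (2585 ± 303), brown adipose tissue (2267 ± 249), white adipose tissue (2261 ± 247), lung (2015 ± 171) and abdominal vein (1987 ± 226) lay near the scaling constant. On 5 arrays (2 of white adipose tissue, 2 of abdominal vein and 1 of abdominal aorta) miR-21 was itself the 75th percentile, so its value there, 2118, is the constant and not a free measurement. With miR-21 and miR-21* left out of the reference, the values on those 5 arrays were 2071 to 2401. Eyeball (1836 ± 254), esophagus (1724 ± 418), parotid gland (1707 ± 394), abdominal aorta (1615 ± 490) and interseptum (1521 ± 102) completed this stretch. Abdominal aorta was at position 35 in the main scaling, but at 18 with the percentile over all miRNAs and 21 in the authors' table.

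Muscle, nerve, spinal cord and brain formed the lower end. Cervical spinal cord (1265 ± 277), sciatic nerve (1263 ± 298), femoris muscle (1235 ± 61.8), gastrocnemial muscle (1213 ± 228), medulla oblongata (1212 ± 333), soleus muscle (1169 ± 325) and thyroid gland (1136 ± 112) differed little. Optic nerve (1133 ± 84.7), pectoral spinal cord (1132 ± 226), heart interventricular septum (1126 ± 175), heart cardiac atrium (1120 ± 155), pancreas (1103 ± 70.3) and lumbar spinal cord (1121 ± 326) had nearly the same level. Tongue (869 ± 81.0), hippocampus (760.2 ± 354), thalamus (663 ± 141) and pituitary gland (641 ± 79.9) came last before cerebral cortex (413 ± 33.4) and cerebellum.

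Of the 54 pairs of neighbors in this order, 51 had overlapping values over the 3 rats and 3 did not. The order of neighboring organs is therefore mostly not resolved with 3 rats. Of the first 15 organs, 13 to 15 remained among the first 15 under the alternatives, and of the last 15, 11 to 15 remained among the last 15. The SD over rats was 14.3% of the mean in the median organ, from 2.67% in trachea to 52.5% in cecum. Over organs, the SD of the organ means was 1.60 on the log2 scale, against a pooled SD within organs of 0.29. For the 144 miRNAs detected on at least 50% of these arrays, the median SD between organs was 1.14 and the median SD within organs was 0.29. miR-21 had the fifth largest SD between organs of the 37 miRNAs detected on all arrays, so a signal present everywhere did not come with a uniform level.

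The rank of miR-21 among the 717 miRNA signals of an array describes how bright it was beside the other miRNAs of the same organ. Signals of different miRNAs also depend on their probes, so a rank orders signals and not molecule numbers. The median rank over the arrays of perfused rats was 12, from 1 to 53. miR-21 was the brightest miRNA on 15 arrays. It had a median rank of 1 in 5 organs (ventral prostate, epididymis, colon, cecum and sublingual gland), of at most 5 in 22 organs and of more than 30 in 6 organs. Those 6 were hippocampus (32), pituitary gland (37), thalamus (38), pancreas (40), cerebral cortex (46) and cerebellum (49).

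**Figure D2:**
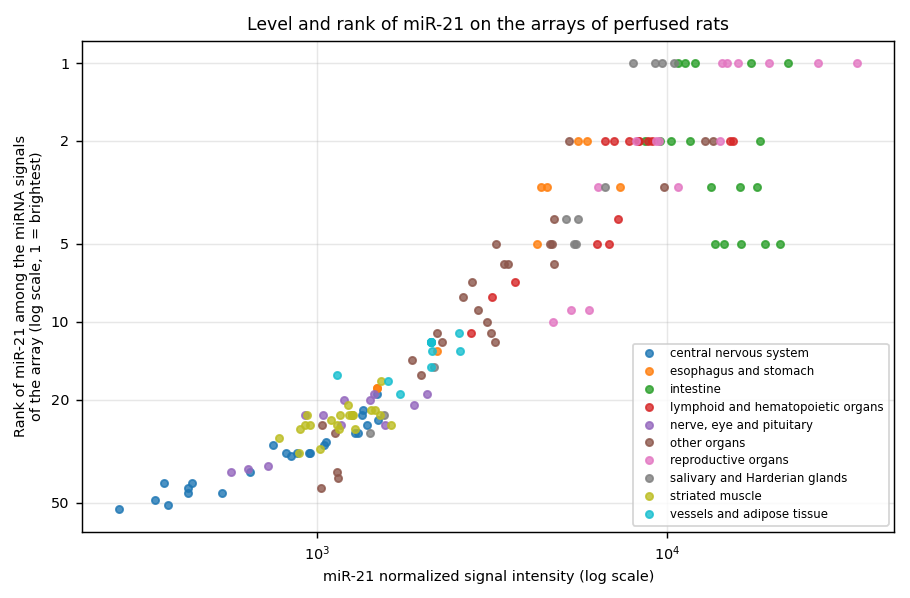
Normalized signal intensity of miR-21 (log scale) against its rank among the miRNA signals of the same array (log scale, 1 is the brightest), with 1 point for each array of perfused rats and colors for organ systems. Duodenum and jejunum sit at a rank of 3 to 5 in spite of high levels. The lowest rank, 53, is in cerebellum, and pancreas sits at 38 to 44.

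miR-21 made up 19.2% ± 3.06 of the summed miRNA signal in ventral prostate and 0.282% ± 0.064 in cerebellum. Its lowest mean share was in pancreas, at 0.0596% ± 0.018. A share also depends on the other miRNAs of the organ, and in pancreas another miRNA had a geometric mean signal of 956796. In the main scaling miR-21 itself was higher in pancreas (1103) than in cerebellum (347). Its median share over the arrays of perfused rats was 2.43%, from 0.0384% to 21.3%. In ventral prostate the next brightest was miR-200b, an epithelial miRNA, at 11999 ± 2970, which is 0.440 of the miR-21 signal. In epididymis it was let-7c at 10361 ± 155, in colon miR-192, an intestinal epithelial miRNA, at 9039 ± 1924, and in sublingual gland let-7a at 6223 ± 563. In cecum it was miR-192 at 7917 ± 3918. In mandibular gland, where miR-21 ranked 1 by mean signal, it was let-7c, at 0.981 of the miR-21 signal. On the single arrays of that gland miR-21 ranked 5, 3 and 1 in rats 4, 5 and 6, so it was brightest in rat 6 only.

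The miRNAs above miR-21, where it ranked 2 or 3 by mean signal, were as follows. In liver, miR-122, the abundant hepatocyte miRNA, was 8.88 times as bright (107094 ± 7408). miR-142-3p, a miRNA of blood-forming cells, lay above it in cervical lymph node (1.56 times), spleen (1.72 times) and mesenteric lymph node (2.39 times). miR-143, a smooth muscle miRNA, lay above it in seminal vesicle (2.63 times), urinary bladder (4.85 times) and anterior stomach (5.21 times). miR-192 was above it in rectum (1.26 times) and, with miR-215_v15.0, in ileum (1.21 and 1.10 times). miR-200b was above it in other prostate (1.15 times) and glandular stomach (1.25 times), where miR-200a (1.05 times) was too, and let-7a was above it in urinary bladder (1.08 times). In other prostate miR-200b ran from 5142 to 19907 and miR-21 from 9462 to 14166, so miR-200b was not above miR-21 in each rat.

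The ventral lobe of the prostate had more miR-21 than the rest of the prostate in 3 of 3 rats. In ventral prostate the signal was 19568, 27096 and 35080 in rats 4, 5 and 6. In other prostate it was 9462, 14166 and 10736 in the same rats. The values of the lobes did not overlap, and ventral was higher by 1.23 ± 0.42 on the log2 scale, or 2.35-fold (0.94 to 1.71 in single rats). Among the 91 miRNAs detected on all 6 arrays the median difference was -0.14, and 1 of the other 90 was more positive than miR-21. The rank was 1 on each ventral array and 2 or 3 on those of other prostate.

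Ventral prostate was also the organ with the highest miR-21 in rats 5 and 6, but at position 3 in rat 4, after cecum (22230) and duodenum (21038), in the main scaling. With the percentile over all miRNAs and in the authors' table it was above duodenum in 3 of 3 rats. All 3 of its values lay above all 3 values of 52 of the other 54 organs, and the exceptions were duodenum and cecum. Its level was 9.31-fold above the geometric mean of the other organs (3.22 ± 0.37 on the log2 scale).

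Markers of other cell types also differed between the lobes. The summed signal of the smooth muscle list (miR-143 and miR-145) was 3147 to 4415 in ventral and 9402 to 10232 in other prostate, and that of the 4 listed mesenchymal miRNAs was 924 to 1067 and 1488 to 1797. The striated muscle list (4 miRNAs) was at 175 to 254 and 649 to 2359, while the epithelial list (5 miRNAs, miR-200 family) overlapped, at 20181 to 27922 and 10810.4 to 36516. The squamous epithelial list (miR-203 and miR-205) did not overlap, at 199 to 211 in ventral and 416 to 549 in other prostate. Nor did the oligodendrocyte and myelin list, at low levels in both, 44.4 to 56.3 and 80.6 to 185. The leukocyte list overlapped too (427 to 634 and 537 to 675, with 3 of 5 members detected on all 3 arrays of each lobe), and 0 of the 3 erythroid miRNAs were detected on all 3 arrays of either lobe. The part of these lists in the lobe difference was not tested.

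The other organs of the male tract lay below the ventral lobe. The order of epididymis and other prostate turned with the scaling: epididymis was higher by 0.41 on the log2 scale in the main scaling, in 3 of 3 rats, and lower in 3 of 3 rats with the percentile over all miRNAs (-0.44) and in the authors' table (-0.85). Seminal vesicle, at 8172, 6335 and 9304 in rats 4, 5 and 6, was below other prostate in 3 of 3 rats (by 0.53 ± 0.55 on the log2 scale), and the values of the organs, 6335 to 9304 and 9462 to 14166, did not overlap in the main scaling. They overlapped with outlier spots kept and after quantile normalization, where the difference was 0.00. Epididymis was 14333, 15995 and 14858, and testis 4731, 5325 and 5973. Epididymis was thus 2.83-fold above testis (1.31 to 1.60 on the log2 scale in single rats), or 4.39-fold with the percentile over all miRNAs and 11.3-fold after quantile normalization, and the rank of miR-21 was 1 in the former and 9 or 10 in the latter.

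In the intestine miR-21 was among the brightest miRNAs in all 6 segments, and the scraped mucosa carried it at 10490.2 to 19400 on average. In the small intestine the signal was 21038, 19080.3 and 18081 in duodenum, 14564, 16305 and 13759 in jejunum and 13399, 18502 and 16208 in ileum (rats 4, 5 and 6). In the large intestine it was 22230, 10774 and 8684 in cecum, 17433, 11279 and 12021 in colon and 10274, 9556 and 11640.3 in rectum. Duodenum stood above rectum in 3 of 3 rats in the main scaling, by 0.89 ± 0.22 on the log2 scale. This direction turned with the scaling: the difference was -0.45 with the percentile over all miRNAs, -0.19 in the authors' table and -1.28 after quantile normalization.

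As a whole the large intestine was lower than the small intestine by 0.45 ± 0.39 on the log2 scale, and this difference depended on the scaling. It was -0.01, -0.77 and -0.58 in rats 4, 5 and 6. Scaled by the percentile over all miRNAs it was 0.14, 0.10 in the authors' table and after quantile normalization 1.73, so its direction turned. The 114 miRNAs detected on all 18 intestinal arrays shifted with it: their median was -0.53 in the main scaling and 0.06 with the percentile over all miRNAs. miR-21 minus that median was 0.08 under both and in the authors' table, 0.54 after normexp background correction and 1.74 after quantile normalization. Of the other 113 miRNAs, 51 were more positive than miR-21 in the main scaling.

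Cell-type markers differed along the intestine as well. The summed signal of the intestinal epithelial list (miR-192, miR-194 and miR-215) was 80908 ± 29725 in duodenum, 64066 ± 11334 in jejunum and 40915 ± 2405 in ileum, against 11077 ± 5479 in cecum, 13494 ± 3063 in colon and 20981 ± 2261 in rectum. This list holds miRNAs that were brighter than miR-21 in the small intestine, and miR-21 ranked at a median of 5 in duodenum and jejunum, 3 in ileum, 1 in cecum and colon and 2 in rectum. In the main scaling, a rank of 5 in duodenum thus stood beside a higher level than a rank of 1 in colon. These ranks count miR-215 and its older duplicate miR-215_v15.0 separately. Without the older duplicates the rank in rats 4, 5 and 6 was 4, 4 and 2 in duodenum, 4, 4 and 4 in jejunum and 2, 2 and 2 in ileum. Between duodenum and rectum, other lists also differed without overlap: the leukocyte list was 2615 to 4782 and 216 to 554, smooth muscle 629 to 2364 and 176 to 373, mesenchyme 233 to 807 and 138 to 167, and endothelium 128 to 453 and 59.7 to 73.3. The squamous epithelial list (1398 to 2339 and 928 to 1076) did not overlap either. Nor did lists at low levels in both segments, those of neurons (109.7 to 128 and 84.0 to 89.0), oligodendrocytes and myelin (89.6 to 112 and 36.8 to 48.0) and striated muscle (58.0 to 78.1 and 43.3 to 50.6). The part of these lists in the miR-21 values was not tested.

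In cecum and colon, miR-21 was highest in rat 4. In the cecum of rat 4 miR-21 was 22230 against 10774 and 8684 in rats 5 and 6, its intestinal epithelial list was 4780 against 13694 and 14756, and its leukocyte list was 6259 against 2884 and 3070. Its epithelial list was 6660 against 15172 and 17574. In the colon of rat 4 miR-21 was 17433 against 11279 and 12021, and its leukocyte list was 5208 against 2013 and 2029, while its epithelial list, at 17592, lay between those of the other rats. Without rat 4 the large intestine was lower than the small by 0.67 on the log2 scale. The part of these markers in the value of miR-21 was not tested.

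The stomach lay below the intestine in the main scaling, and after quantile normalization glandular stomach was above duodenum, by 0.88 on the log2 scale. miR-21 was 4529, 5576 and 7348 in glandular stomach and 4245, 4358 and 5922 in anterior stomach, in rats 4, 5 and 6. The 2 parts overlapped, and anterior was lower by 0.25 ± 0.14 on the log2 scale in the main scaling. It was higher by 0.53 with the percentile over all miRNAs and by 0.69 in the authors' table, so this direction turned with the scaling. In the same samples the smooth muscle list was 25868 ± 3466 in anterior and 771 ± 233 in glandular stomach, and the epithelial list (miR-200 family) was 711 ± 83.0 and 18545 ± 4231. The squamous epithelial list (miR-203 and miR-205) ran the other way, at 2211 to 2786 in anterior and 109 to 163 in glandular stomach. Without overlap were also striated muscle (971 to 1153 in anterior and 45.4 to 56.1 in glandular stomach), intestinal epithelium (34.4 to 38.0 and 3026 to 5394), mesenchyme (1009 to 1265 and 393 to 672) and endothelium (374 to 404 and 156 to 278). The same held, at low levels in both, for neurons (86.5 to 88.3 and 122 to 125) and for oligodendrocytes and myelin (65.8 to 73.8 and 35.8 to 40.6). The part of these lists was not tested. Esophagus was 1485, 1481 and 2207, all under every stomach value, and glandular stomach was 3.37-fold above it (1.75 ± 0.15 on the log2 scale), or 6.70-fold after quantile normalization.

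In the central nervous system miR-21 was low, and its level was higher in the medulla oblongata and spinal cord than in the cerebral cortex and cerebellum. In rats 4, 5 and 6 it was 344, 427 and 271 in cerebellum and 375, 438 and 426 in cerebral cortex. It was 534, 640.1 and 814 in thalamus and 841, 1308 and 1487 in medulla oblongata. In cervical spinal cord it was 956, 1489 and 1352, in pectoral spinal cord 949.9, 1385 and 1061, and in lumbar spinal cord 746, 1279 and 1339. Medulla and cord together were 2.30-fold above cortex, hippocampus, thalamus and cerebellum (0.75 to 1.58 on the log2 scale in single rats). Medulla oblongata alone was 2.86-fold above cerebral cortex (1.52 ± 0.32).

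In the comparisons, central nervous system means 8 regions of brain and spinal cord. The optic nerve, also a central tract, was counted with the other organs. Averaged over the 8 regions, the central nervous system was 4.90-fold under the other organs (-2.29 ± 0.11 on the log2 scale), in 3 of 3 rats. It was 9.52-fold under them with the percentile over all miRNAs and 8.58-fold in the authors' table. Among the 37 miRNAs detected on all arrays the median difference was -0.41, and 1 of the other 36 was more negative than miR-21. Optic nerve (1170.4, 1192 and 1036) and sciatic nerve (920.4, 1415 and 1456) together stood 1.55-fold above the 8 regions of brain and spinal cord (0.64 ± 0.08). The values of the nerves overlapped those of medulla and cord. With the percentile over all miRNAs and in the authors' table the nerves stood 3.00-fold and 3.30-fold above the 8 regions. All of their values then lay above those of medulla and cord.

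The marker lists of neural cells ran in opposite directions over these regions. The neuronal list (7 miRNAs, among them miR-124 and miR-9) summed to 24179 ± 1518 in cerebral cortex, 22386 ± 2593 in cerebellum, 11386 ± 1780 in medulla oblongata and 8982 ± 1452 in cervical spinal cord. The oligodendrocyte and myelin list (miR-219-5p, miR-219-2-3p and miR-338) was 1622 ± 398, 1458 ± 398, 5592 ± 782 and 6979 ± 427 in the same regions. In sciatic nerve they were 237 ± 13.3 and 2623 ± 65.8. The part of the cell makeup in the miR-21 levels was not tested.

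Hippocampus was the region with the widest spread, at 1045, 363 and 873 in rats 4, 5 and 6, or 760.2 ± 354. In rats 4 and 6 hippocampus lay above cerebral cortex (by 1.48 and 1.04 on the log2 scale), and in rat 5 below it (-0.27). The oligodendrocyte and myelin list in hippocampus was 5230, 1623 and 4100 in the same rats, so that of rat 5 lay near the 1553 of its cerebral cortex. The endothelial list (686, 324 and 475), the leukocyte list (443, 237 and 334) and the smooth muscle list (402, 246 and 302) were also lowest in rat 5. The neuronal list was 16831, 16714 and 18040.5. The part of these lists in the value of rat 5 was not tested.

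For 8 arrays titled as rat 5 (medulla oblongata, pituitary gland, 3 spinal cord segments and 3 limb muscles), another label gives rat 6, and the title was used. Without them the central nervous system was at -2.35 on the log2 scale from the other organs.

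The 2 lymph nodes also differed. miR-21 was 8805, 15196 and 15484 in cervical and 6673, 7791 and 8268 in mesenteric lymph node, without overlap in the main scaling, with cervical 1.69-fold higher (0.76 ± 0.31 on the log2 scale). In the authors' table cervical was higher in 2 of 3 rats and the nodes overlapped, as they did with the percentile over all miRNAs, and after quantile normalization the difference was 0.00. The endothelial list was 873 to 1222 in cervical and 1646 to 1840 in mesenteric node, and its part was not tested. The cervical node of rat 4, the lowest of its group, had an epithelial list of 3646, against 55.6 and 57.6 in rats 5 and 6, and a leukocyte list of 20377, against 29684 and 34838. Their part in its lower miR-21 was not tested.

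Among glands, sublingual gland (9250.5, 10453 and 9704) stood 5.83-fold above parotid gland (2155, 1412 and 1555), or 2.54 ± 0.40 on the log2 scale, and 26.5-fold after quantile normalization. Liver stood 10.9-fold above pancreas (3.44 ± 0.30), where miR-21 was 1141, 1146 and 1022. This fold was 47.6 in the authors' table, 77.5 with the percentile over all miRNAs and 29.9 after quantile normalization. In pancreas the 75th percentile used for scaling was 68.0 to 120.7 on the scanner's scale, against 2279 to 2547 in cerebral cortex, and the organ fell from position 48 to 55 of 55 when scaled over all miRNAs.

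**Figure D3:**
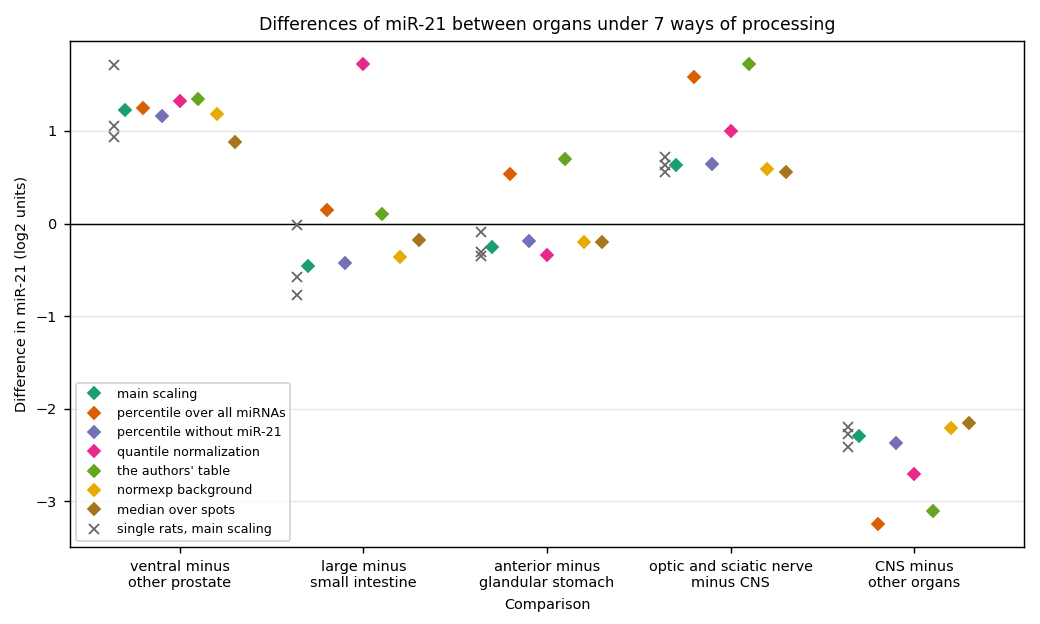
Difference of miR-21 (log2 units) for 5 comparisons of organs, with 1 diamond for each of 7 ways of processing and crosses for the 3 single rats in the main scaling. The prostate, nerve and central nervous system differences keep their sign, while those of the intestine and the stomach cross 0. Central nervous system means the 8 regions of brain and spinal cord, without the optic nerve.

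Perfusion with saline removes blood from an organ, and the comparison asks whether miR-21 depended on it. In no organ did perfused and not perfused rats differ beyond their spread. In liver the signal was 9807, 13506 and 12882 in perfused rats 4, 5 and 6 and 13060, 9487 and 9090.03 in rats 1, 2 and 3, which were not perfused. In kidney it was 4641, 3429 and 3515 against 3587, 2988 and 3960.4, and in lung 1865, 2201 and 1978 against 1803, 1734 and 2347. In heart cardiac atrium it was 956, 1263 and 1142 against 905, 1126 and 1201, and in heart interventricular septum 925, 1224 and 1230 against 838, 1055 and 1120. The values of the conditions overlapped in all 5 organs.

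Perfused rats exceeded the others on the log2 scale by 0.20 for liver (95% interval -0.17 to 0.57), 0.13 for kidney (-0.24 to 0.50), 0.05 for lung (-0.32 to 0.42), 0.06 for the atrium (-0.31 to 0.43) and 0.16 for the septum (-0.21 to 0.53). The limma adjusted p was 1 in each, and exact two-sided permutation p were 0.3, 0.6, 0.7, 0.6 and 0.5 (the smallest that 3 against 3 allows is 0.1). Of the 191 miRNAs tested, 0 passed in each organ (0% called), with 11, 4, 12, 4 and 3 at an unadjusted p under 0.05. Averaged over the 5 organs of each rat the difference was 0.12 (-0.08 to 0.32, limma adjusted p 1, exact permutation p 0.2, 0% called), and the interaction of condition and organ had a limma adjusted p of 1 (0% called), with 4 and 6 miRNAs at an unadjusted p under 0.05. A p that misses the threshold does not show that the conditions were equal. The paper describes the blood-cell miRNAs miR-451 and miR-144 as clearly seen in organs that were not perfused and not in perfused ones. The 0% called here therefore does not show that perfusion changed no miRNA. Values of those miRNAs in the conditions are not given here.

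**Figure D4:**
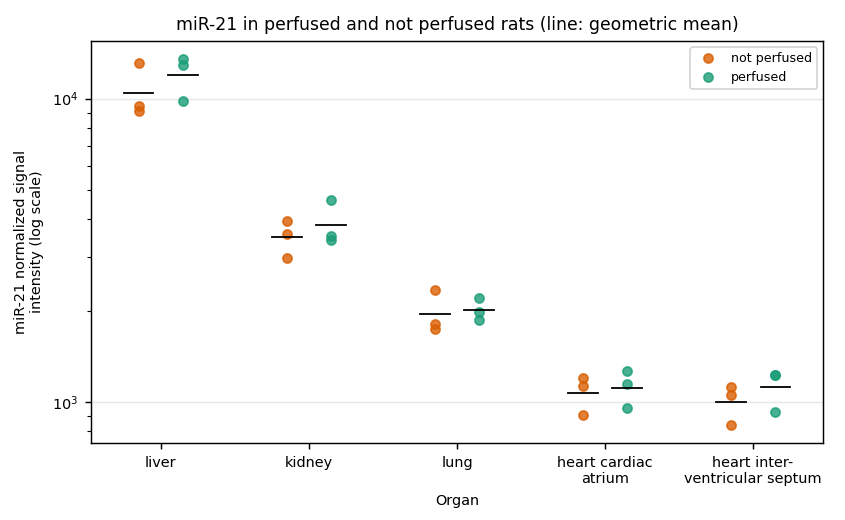
Normalized signal intensity of miR-21 (log scale) in 5 organs of 3 not perfused (orange) and 3 perfused (green) rats, with 1 point per rat and a line at the geometric mean. The values of the conditions overlap in each organ.

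The arrays of the not perfused rats and those of rat 4 in these organs were scanned on one day, and those of rats 5 and 6 on 2 other days. Within that day, rat 4 minus the rats that were not perfused was 0.41 in kidney, -0.16 in the atrium, -0.11 in the septum, -0.09 in liver and -0.06 in lung, with 1 rat against 3 and no test. On the slide that held both conditions of an organ, the septum differed by -0.28 (1 array of each).

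Over the 55 organs, rats 4, 5 and 6 had a mean miR-21 of 11.46, 11.56 and 11.58 on the log2 scale. The largest difference between rats was 0.12, with a limma adjusted p of 0.32. In that test 22 of 345 miRNAs passed (6.38% called), and miR-21 was not one of them. The count moved with the processing, to 82 of 344 (23.8%) in the authors' table and 2 of 367 (0.54%) without rat 6. Most arrays of a rat shared a scan day: rat 4 had 38 arrays on the first day and 17 on the second, rat 5 had 47 on the second and 8 on the third, and rat 6 had all of its arrays on the third. With scan day as a term, an alternative added after seeing the data, the largest difference was 0.32 with a limma adjusted p of 0.094. Within the second day, rat 5 was above rat 4 by 0.43 on average, in 10 of 10 organs, which include the 8 arrays of rat 5 with another rat in a label. Within the third day, rat 6 minus rat 5 was -0.08 on average, positive in 4 of 8 organs.

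The miRNAs whose organ means were most like those of miR-21 were found by Pearson's r over the 55 organs, among 143 miRNAs detected on at least 50% of the arrays of perfused rats. The points share the arrays and their scaling, and the r are descriptions. The highest were miR-19b (0.73), miR-19a (0.72), miR-15b (0.72), miR-362* (0.69) and miR-106b (0.65), against a median of 0.06 over the 143. miR-19b and miR-15b were the first 2 under each of the 8 other scalings, backgrounds, spot summaries and floors, while miR-362* fell to position 21 of 143 in the authors' table and 31 with normexp background (r 0.39), miR-19a to 16 with the percentile over all miRNAs and miR-106b to 9 with normexp. miR-19a, miR-19b and miR-106b belong to the miR-17-92 family of clusters, which is known from proliferating cells. Of these, miR-19b, miR-19a, miR-15b and miR-106b were highest in thymus and miR-362* in duodenum. miR-19a and miR-362* were detected on 123 and 136 arrays of perfused rats, so part of their range lies at the floor.

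The lowest were miR-99b (-0.67), miR-127 (-0.66) and miR-125a-5p (-0.66). miR-99b and miR-125a-5p are encoded in one cluster, and miR-127 comes from the imprinted Dlk1-Dio3 locus. With the percentile over all miRNAs, r of miR-99b was -0.25 and of miR-125a-5p -0.27, while that of miR-127 was -0.70. For miR-19b it was 0.76. miR-127 was detected on 92 arrays of perfused rats, fewer than miR-19a and miR-362*, so part of its range lies at the floor too. With the 2 organs farthest from the median of miR-21 left out, miR-19b was at 0.74 and miR-99b at -0.62.

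**Figure D5:**
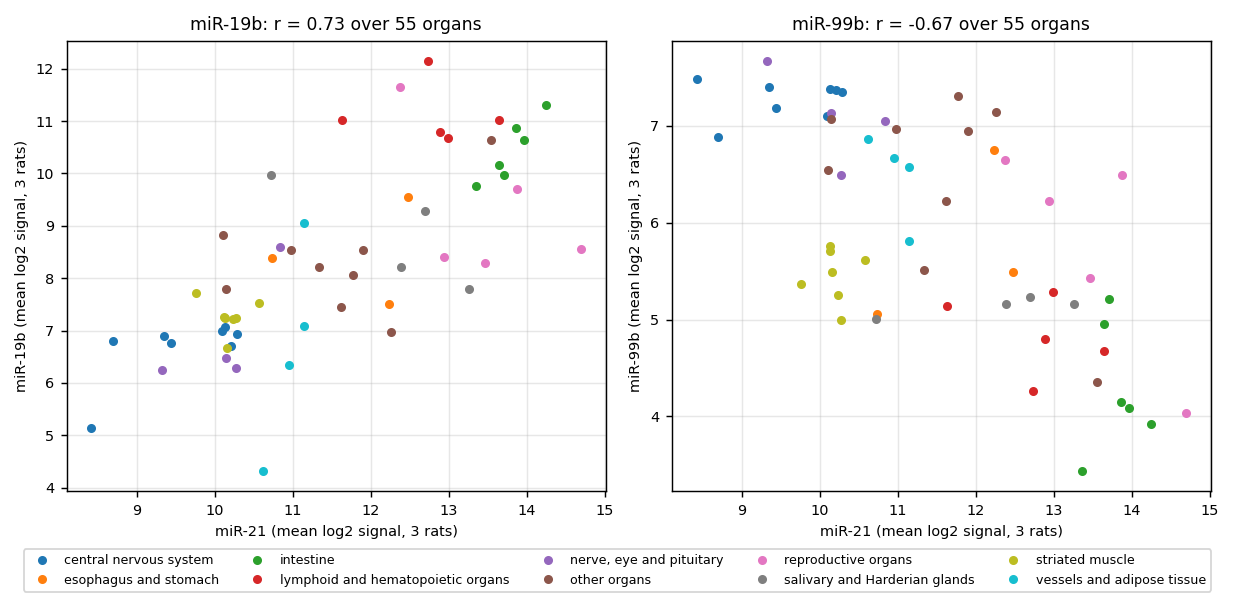
Mean log2 signal of miR-21 over 3 perfused rats (horizontal axis) against that of miR-19b (left) and miR-99b (right) in 55 organs, colored by organ system. miR-19b rises with miR-21 (r 0.73) with ventral prostate off the main trend, and miR-99b falls (r -0.67).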

How the data were processed

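Agilent miRNA arrays (1 color) of 180 samples were used, from 0.1 ug of RNA each, per the labels. The authors deposited the output of Agilent Feature Extraction 10.7.3, with a background-corrected intensity per spot, and a table of normalized intensity per miRNA. Samples were grouped by organ, condition and rat from the labels, as 60 groups of 3. The member and the lists were chosen with earlier results of these data known.

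Spots marked as outliers (1.63% to 6.42% of an array) were left out, and the others averaged per probe and per miRNA. Detection required that more than 50% of the spots used rose well above background (86 to 244 per array). Arrays were scaled by the 75th percentile of the 37 miRNAs detected on all arrays, miR-21 among them. A floor of 10.8 was applied before log2. Of the design names, 40 are older duplicates (_v15.0). Precision is limited by the number of arrays.

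Conditions and rats were tested with limma (two-sided, Benjamini-Hochberg over all miRNAs tested), over 10 groups (condition) or 55 organs (rats). Single values had exact permutation tests. The limma tests were checked on simulated data, but the outcome is not given here and nothing is concluded from it. By the labels a rat number marks a single animal, with a mean residual correlation of 0.05 within rats 4, 5 and 6 (0.03, 0.06 and 0.05) and -0.02 between rats. The p-values for condition measure the spread between rats, 3 in each condition, while the test of rats compares 3 single animals against the spread over their organs, which are not replicates of a rat.

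The miRNAs named were miR-21 and miR-21*, those sharing its seed, the 5 highest and 3 lowest by r, those ranked above it where it ranked 2 or 3, and summaries of marker lists; the brightest miRNA after miR-21, where it ranked 1, was added after its values were seen. miR-155 and miR-216b of the lists had no such name in the design and were left out. The paper gives miR-216b by its arms, as miR-216b-5p and miR-216b-3p, so it was on the array under those names. Alternatives changed scaling, background, spots, floor, filter, blocks and arrays. The authors' table as used here held 715 of the 717 miRNAs, and its 21 control rows were not used. The normexp alternative used median spot signals. Versions were R 4.3.3, limma 3.58.1, Python 3.11.15, numpy 2.4.6, pandas 2.3.3, scipy 1.17.1 and matplotlib 3.10.9.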

Additional observations from a re-analysis of the deposited data

How the results depend on the processing

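The main comparisons were recomputed with other scalings, backgrounds, spot summaries, floors, filters and arrays. For the differences between single organs these alternatives were added after seeing the data, as was scan day as a term for the difference between rats. The ventral over other prostate difference moved by less than its spread over rats under all of them (0.88 to 1.38). The large minus small intestine difference was 0.14 with the percentile over all miRNAs, 1.73 after quantile normalization and 0.10 in the authors' table, and the anterior minus glandular stomach difference was 0.53 with the first and 0.69 with the last, so both turned. The central nervous system minus other organs was -3.25, -2.70 and -3.10 under these 3 scalings and -2.15 with the median over spots, and nerves minus central nervous system was 1.59, 1.00 and 1.72 under the 3 scalings. Ventral prostate minus the other organs was 3.69 in the authors' table. The SD between organs was 1.82, 1.92 and 1.74 under the 3 scalings, 1.65 without miR-21 in the reference, 1.53 with normexp and 1.57 with the median over spots. Highest over lowest organ was 7.44 with the percentile over all miRNAs (pancreas lowest) and 7.15 in the authors' table (cerebral cortex lowest), and the median rank was 11 with the median over spots and without the 8 arrays of 2 rat numbers, and 11 to 12 without single rats. Ventral prostate was highest in every alternative except that it tied with 3 other organs after quantile normalization, which gives the brightest miRNA of each array one value. The cause of these moves was not tested.

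The perfusion difference in miR-21 turned to -0.20 in liver after quantile normalization and to -0.18 in kidney and -0.14 in lung with the median over spots. Leaving out single rats gave -0.033 to 0.19 in lung, -0.063 to 0.17 in heart cardiac atrium and -0.0068 to 0.22 in kidney. limma called miR-21 in none of these. Over the alternatives its adjusted p was 0.65 to 1 in liver, 0.46 to 1 in kidney, 0.62 to 1 in lung, 0.90 to 1 in atrium, 0.56 to 1 in septum, 0.48 to 1 for the mean of 5 organs and 0.084 to 0.98 for the difference between rats. In the perfusion tests, 0 of all miRNAs were called in the main setting. In liver, 2 were called without miR-21 in the reference, 3 after quantile normalization, 2 in the authors' table, 5 with the floor raised 4 times and 3 without a filter. In kidney, 1 was called with the percentile over all miRNAs, 3 after quantile normalization, 2 with the median over spots, 1 without a filter and 1 with detection on 50% of arrays. In lung, 1 was called without miR-21 in the reference, after quantile normalization, with outlier spots kept and with detection on 50% of arrays, and 2 with the median over spots. In atrium, 2 were called in the authors' table and 1 with the median over spots, and in septum 1 in the authors' table. Without single rats the calls ranged from 0 to 4 in liver, 0 to 3 in kidney, 0 to 2 in lung, 0 to 1 in atrium and 0 to 1 in septum. With the replicate block (rat as a random block) the interaction kept an adjusted p of 1. No paired analysis of condition was possible because perfused and not perfused rats share no number. Slide as a block was not run for the mean of 5 organs, whose values are means per rat.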
